A study of Arabidopsis thaliana with 8 samples.

Results

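The salicylic acid pathway and its pathogenesis-related (PR) genes were examined in inflorescences of the janus-2 mutant and of wild-type Arabidopsis thaliana, accession Col-0. The 10 genes were chosen by locus from the 28775 genes of the mRNA tables, by their known roles in the pathway. Earlier results of these data were known when they were chosen. ICS1 (AT1G74710) and EDS5 (AT4G39030) act in synthesis. EDS1 (AT3G48090), PAD4 (AT3G52430) and SARD1 (AT1G73805) are upstream regulators. NPR1 (AT1G64280) and WRKY70 (AT3G56400) act in perception and response. PR1 (AT2G14610), PR2 (AT3G57260) and PR5 (AT1G75040) are the classical output genes.

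The mRNA comparison held 2 libraries of janus-2 and 2 of Col-0, described by the study as biological replicates, and small RNA libraries of the same genotypes were not used here. The mutant, labelled only janus, is a single hypomorphic line with a small CRISPR/Cas9 deletion in an exon of JANUS, the plant homologue of the U2 snRNP protein SF3B4/HSH49. The deletion was backcrossed into Col-0, the background of both groups, and the mutant plants are sterile. No treatment or pathogen is named in the labels, and plant age at harvest is not given in the sources used here. The genotype comparison asked how reduced JANUS function changes mRNA levels, read here for one hormone pathway.

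Salicylic acid is a plant hormone best known for defence against pathogens that feed on living tissue. In Arabidopsis most of it is made from chorismate through isochorismate, and EDS1 with PAD4 and the transcription factors SARD1 and CBP60g act upstream of this route. NPR1 and its relatives perceive the hormone and act with TGA factors on target genes, of which PR1, PR2 and PR5 are the usual markers in leaves.

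Counts on genes totalled 63578320 and 58966170 in the janus-2 libraries, against 56360882 and 65578130 in those of Col-0. JANUS (AT2G18510) had 18.3 and 19.4 CPM (counts-per-million, scaled by TMM normalisation factors) in janus-2, against 54.9 and 54.2 CPM in Col-0, a log2 fold change of -1.53. Of 22990 genes tested, 4258 were called higher and 6244 lower in janus-2, and the median of all log2 fold changes was -0.019. The 6 floral identity genes summed to 582 and 582 CPM in janus-2, against 813 and 806 CPM in Col-0, so floral tissue was present in all 4 libraries. Of the 6, 2 fell, or 33.3%, beside 27.2% of all tested genes. Markers of the male floral tissues moved with genotype: all 10 pollen markers fell, with summed levels of 19.2 and 20.7 CPM in janus-2, against 7543 and 7517 CPM in Col-0. All 12 tapetum markers also fell, with sums of 93.8 and 93.4 CPM in janus-2, against 690 and 677 CPM in Col-0. Some markers of both lists passed the filter on low counts only through Col-0, so they could be tested only if lower in janus-2. Of 6 senescence markers 1 rose and 2 fell, or 16.7% and 33.3%, beside 18.5% higher and 27.2% lower over all tested genes. The 13 leaf photosynthesis markers had log2 fold changes of -0.40 to 0.25. In bulk inflorescences, fewer cells of a type and less RNA per cell cannot be told apart, and the part of tissue makeup in the results below was not tested.

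The 3 PR genes and the regulator SARD1 rose in janus-2, whereas the other 6 genes were not called in either direction. PR1 differed by 9.37-fold, SARD1 by 3.99-fold, PR2 by 3.13-fold and PR5 by 1.82-fold. A call required a Benjamini-Hochberg adjusted p of at most 0.05 in edgeR's quasi-likelihood test over all tested genes and a fold change of at least 1.5. All 10 genes passed the filter on low counts, PR1 only through its janus-2 libraries, so at its Col-0 level it had to be higher in janus-2 to be tested at all. Leaving PR1 aside, 3 of the other 9 were called higher. The 4 of 10 called higher stand beside 18.5% of all tested genes, and the 0 of 10 called lower beside 27.2%. DESeq2's test also called 0 lower. In both tools 1 gene, EDS1, was lower past the adjusted p (2.11e-05 by edgeR, 0.0021 by DESeq2) but under the fold threshold. The median log2 fold change of the 10 genes was 0.53, with a range of -0.21 to 3.23. These genes are few and were not drawn at random, so the shares describe them and test nothing further.

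**Figure D1:**
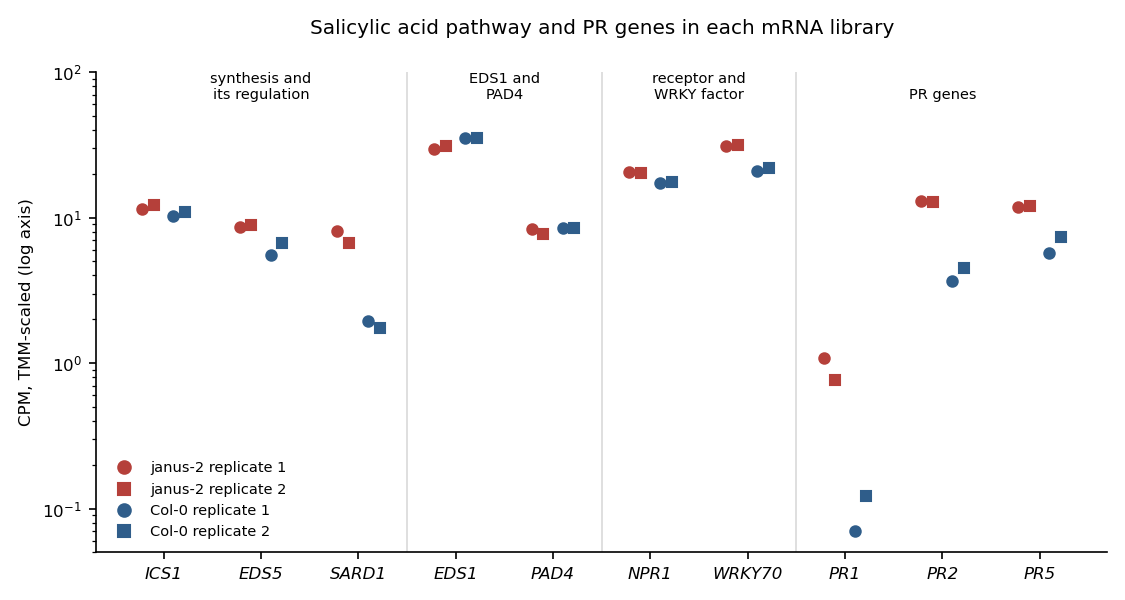
CPM (TMM-scaled, log axis) of each of the 10 genes in the 2 janus-2 libraries and the 2 Col-0 libraries, 1 point per library. SARD1, PR1, PR2 and PR5 lie clearly higher in janus-2, while the points of PAD4 lie between 7.74 and 8.43 CPM in both genotypes; CPM is not corrected for gene length, so levels of different genes are not comparable.

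Among the synthesis genes, neither was called. ICS1, the isochorismate synthase that starts the main route, had 11.4 and 12.2 CPM in janus-2, against 10.3 and 11.0 CPM in Col-0. Both janus-2 libraries lay above both Col-0 libraries, but by little. The log2 fold change was 0.14, with an adjusted p of 0.0912 in edgeR's test and a DESeq2 95% interval of -0.082 to 0.37. That interval leaves room for a small difference in either direction.

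EDS5, the chloroplast envelope transporter needed for salicylic acid accumulation, had 8.55 and 8.91 CPM in janus-2, against 5.53 and 6.64 CPM in Col-0. The genotypes did not overlap, and the Col-0 libraries were spread more widely than those of janus-2. Its fold change of 1.43 lay just under the threshold (log2 0.51, SE 0.15, adjusted p 7.58e-07 by edgeR). Without Col-0 replicate 2 the log2 fold change was 0.66 and EDS5 was called higher.

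The upstream regulators did not move together. SARD1, a transcription factor that activates ICS1 and other defence genes, had 8.04 and 6.68 CPM in janus-2, against 1.96 and 1.74 CPM in Col-0. Each janus-2 library lay well above both Col-0 libraries. The log2 fold change was 2.0 (SE 0.20, adjusted p 7.35e-46 by edgeR), and 3.49% of the tested genes had a larger one.

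EDS1, a lipase-like protein that forms immune signalling complexes, had 29.7 and 31.0 CPM in janus-2, against 35.2 and 35.0 CPM in Col-0. Both mutant libraries lay below both wild-type libraries. The log2 fold change of -0.21 (SE 0.067) passed the adjusted p (2.11e-05 by edgeR) but not the fold threshold, at 1.16-fold.

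PAD4, a partner of EDS1, had 8.39 and 7.74 CPM in janus-2, against 8.43 and 8.42 CPM in Col-0. No difference in PAD4 was detected, with a log2 fold change of -0.062 and a DESeq2 95% interval of -0.33 to 0.19 (adjusted p 0.545 by edgeR).

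In perception and response, NPR1 and WRKY70 were higher by amounts under the fold threshold. NPR1, a salicylic acid receptor and transcriptional coactivator, had 20.4 and 20.2 CPM in janus-2, against 17.3 and 17.5 CPM in Col-0. The replicates lay close together within each genotype and the log2 fold change was 0.22 (SE 0.087, adjusted p 0.00076 by edgeR). WRKY70, a transcription factor that promotes salicylic acid responses and restrains those to jasmonate, had 31.0 and 31.5 CPM in janus-2, against 20.9 and 22.0 CPM in Col-0. That 1.46-fold difference did not overlap between genotypes (log2 0.54, SE 0.075, adjusted p 9.41e-23 by edgeR).

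The output genes rose in the order PR1, PR2, PR5 by fold, although differences between these folds were not tested. PR1, a small secreted protein used as the standard marker of the pathway, had 69 and 45 counts in janus-2, against 4 and 8 counts in Col-0. These counts are low in both genotypes: PR1 stood at 1.09 and 0.767 CPM in janus-2, against 0.0707 and 0.121 CPM in Col-0. In Col-0 the level was close to the floor of 3 counts, which was 0.0457 to 0.0532 CPM across libraries before TMM scaling.

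Exact Poisson 95% intervals, which cover counting error only, were 53.7 to 87.3 and 32.8 to 60.2 counts in janus-2, against 1.09 to 10.2 and 3.45 to 15.8 counts in Col-0. The intervals of the 2 genotypes did not meet. The log2 fold change of PR1 was 3.23 (SE 0.65, adjusted p 2.22e-11 by edgeR), with a DESeq2 95% interval of 1.99 to 4.53, and ranged over 2.92 to 3.68 when each library was left out in turn.

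PR2, a secreted beta-glucanase, had 12.9 and 12.8 CPM in janus-2, against 3.69 and 4.49 CPM in Col-0. The janus-2 libraries were nearly equal and both lay far above Col-0 (log2 fold change 1.65, SE 0.14, adjusted p 3.43e-59 by edgeR). PR5, a thaumatin-like protein, had 11.9 and 12.0 CPM in janus-2, against 5.72 and 7.33 CPM in Col-0. Its genotypes did not overlap either, with a wider spread in Col-0 (log2 fold change 0.87, SE 0.14, adjusted p 1.67e-20 by edgeR). In the all-gene ranking, 1.32% of tested genes had a larger log2 fold change than PR1, 4.76% than PR2 and 11.6% than PR5. The rank of PR1 rests on a Col-0 level near the floor and on a filter passed only through janus-2.

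**Figure D2:**
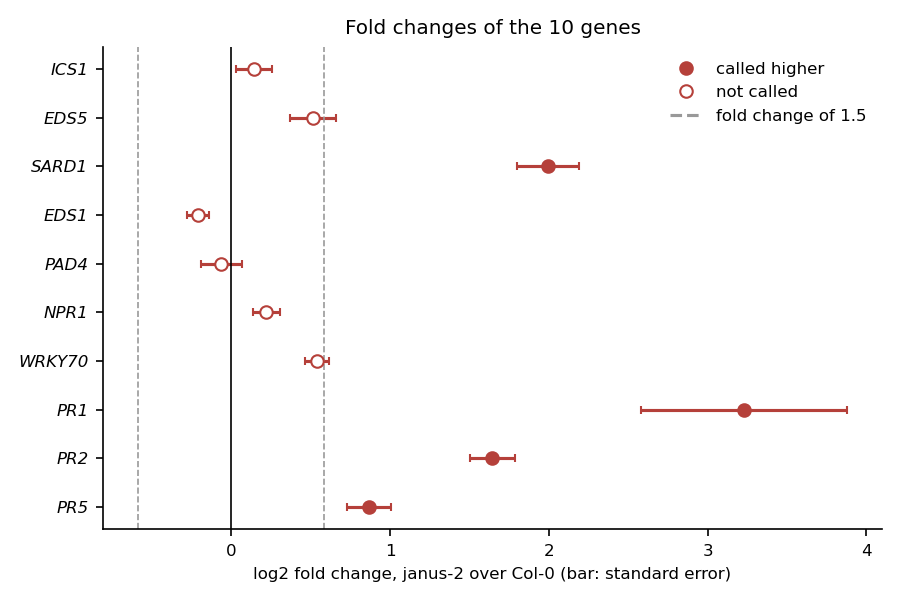
Log2 fold change of janus-2 over Col-0 for the 10 genes (edgeR), with DESeq2 standard errors as bars and the threshold of 1.5-fold dashed. SARD1 (2.0), PR1 (3.23), PR2 (1.65) and PR5 (0.87) lie beyond the threshold, EDS5 (0.51) and WRKY70 (0.54) just inside it, and the widest bar is that of PR1.

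Small differences were often past the adjusted p alone, in deep libraries whose replicates were close to each other. With no fold threshold, 7 of the 10 genes were higher (the 4 called ones with EDS5, NPR1 and WRKY70) and 1, EDS1, was lower, beside 40.6% and 42.5% of all tested genes. Both janus-2 libraries lay above both Col-0 libraries for 8 of the 10 genes and below for 2, EDS1 and PAD4, beside 44.2% and 46.6% of all tested genes. Separation without overlap was thus common across the transcriptome. EDS1 passed the adjusted p too, but in the lower direction. By the rule for calls, only the fold threshold set SARD1 and the PR genes apart from EDS5, NPR1 and WRKY70. EDS5 (1.43-fold) and WRKY70 (1.46-fold) lay just under it, and ICS1 and PAD4 did not pass the adjusted p either. The common biological coefficient of variation was 2.26%. Counts of replicate pairs differed by more than counting noise, the chi-square divided by its degrees of freedom being 2.51 for janus-2 and 2.34 for Col-0. How far these pairs sample the variation between plants is not shown by these values.

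**Figure D3:**
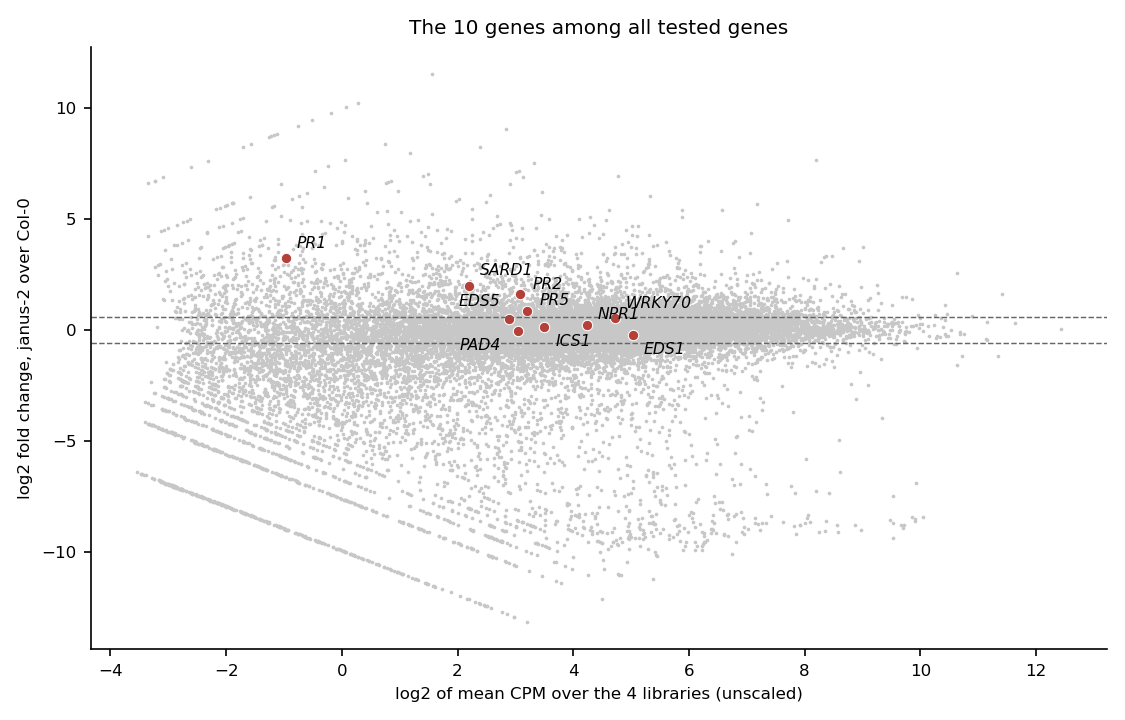
Log2 fold change of janus-2 over Col-0 against mean log2 CPM for all 22990 tested genes, with the 10 salicylic acid genes marked by name and dashed lines at 1.5-fold. PR1 has the lowest mean CPM and the largest log2 fold change of the 10 (3.23), and ICS1, PAD4, NPR1 and EDS1 lie near 0.

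The close relatives of several of these genes, some of them adjacent in the genome, had values of their own. Both neighbours of PR5 in the RefSeq gene order fell where PR5 rose. TLP-3, a thaumatin-like gene on one side, had 7.76 and 6.58 CPM in janus-2, against 54.6 and 55.3 CPM in Col-0 (log2 fold change -2.93). AT1G75050, on the other side, had 1.41 and 1.58 CPM in janus-2, against 20.1 and 19.5 CPM in Col-0 (log2 fold change -3.73, adjusted p 2.64e-244 by edgeR). PR5, between them, stood at 0.87 on the log2 scale.

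AT3G48080, the gene next to EDS1, had 23 and 26 counts in janus-2, against 76 and 101 counts in Col-0, and fell by 1.83 on the log2 scale (adjusted p 1.15e-08 by edgeR), whereas EDS1 stood at -0.21. ICS2, the second isochorismate synthase gene, had 95 and 80 counts in janus-2, against 236 and 312 counts in Col-0. It fell by 1.63 on the log2 scale (adjusted p 1.83e-21 by edgeR), with ICS1 at 0.14. Relatives of near-identical sequence can share reads, and how such reads were assigned is not given in the sources used here.

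PRB1, a basic relative near PR1, had 0 and 0 counts in janus-2, against 7 and 7 counts in Col-0. Taken against the floor of 3 counts per library it was at least 2.33-fold lower in janus-2, and it was too low to be tested. Near PR2, BG3 had 12 and 17 counts in janus-2, against 8 and 3 counts in Col-0. Like PR1, it passed the filter on low counts only through its janus-2 libraries. BG3 was called higher (adjusted p 0.0458 by edgeR), but the call was lost without janus-2 replicate 1 (adjusted p 0.0716), janus-2 replicate 2 (0.31) or Col-0 replicate 2 (0.431), and under DESeq2's test (0.19). BG1, adjacent to PR2, had 5 and 25 counts in janus-2, against 28 and 17 counts in Col-0, and the libraries of the 2 genotypes overlapped (adjusted p 0.259 by edgeR). Without janus-2 replicate 2 BG1 was called lower, at -2.19 on the log2 scale. Differences between a gene and its relative were not tested.

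**Figure D4:**
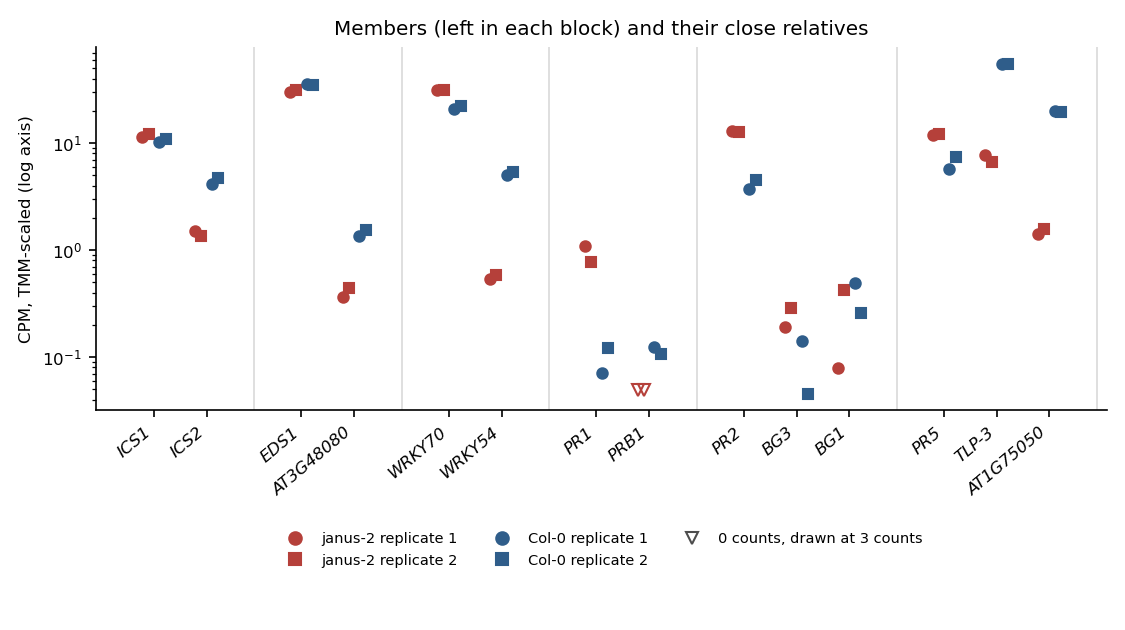
CPM (TMM-scaled, log axis) of salicylic acid genes and of their close relatives in each janus-2 and Col-0 library. PR5 is higher in janus-2 while its neighbours TLP-3 and AT1G75050 are lower, open triangles are libraries with 0 counts drawn at the 3-count floor, and EDS1 and ICS1 differ little between genotypes while AT3G48080 and ICS2 are lower in janus-2.

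The wider pathway was described with 62 further genes in 7 lists, of which 56 could be tested. Of these, 19 rose, 19 fell and 18 were not called, with a median log2 fold change of 0.10. Each direction made up 33.9% of the tested genes, beside 18.5% higher and 27.2% lower over all genes. The wider pathway thus held changes of both signs in equal number.

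Among 10 further genes of synthesis and its regulation, 2 rose and 4 fell (median -0.11). That is 20% and 40%, beside 18.5% higher and 27.2% lower over all genes. PBS3, which conjugates isochorismate to glutamate in the step after EDS5, had 4.12 and 4.12 CPM in janus-2, against 32.6 and 28.8 CPM in Col-0 (log2 fold change -2.90, adjusted p 9.54e-286 by edgeR). PAL4, a phenylalanine ammonia-lyase of the alternative route, had 9.02 and 9.20 CPM in janus-2, against 90.5 and 92.4 CPM in Col-0 (log2 fold change -3.33). CBP60G, the closest functional partner of SARD1, had 4.86 and 4.99 CPM in janus-2, against 1.52 and 1.38 CPM in Col-0 (log2 fold change 1.77, adjusted p 4.38e-26 by edgeR). Both transcription factors SARD1 and CBP60G were therefore higher in janus-2, while their target ICS1 was not called and ICS2 and PBS3 were lower.

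In the list of EDS1 relatives and immune receptor signalling, 4 of 8 genes rose and 2 fell (median 0.66). These were 50% and 25%, beside 18.5% higher and 27.2% lower over all genes. SAG101, the other lipase-like partner of EDS1, had 38.0 and 35.7 CPM in janus-2, against 7.28 and 7.0 CPM in Col-0 (log2 fold change 2.37, adjusted p 2.27e-269 by edgeR). ADR1, a helper immune receptor, had 43.6 and 42.0 CPM in janus-2, against 14.6 and 14.9 CPM in Col-0 (log2 fold change 1.54). NDR1, a membrane protein required by some immune receptors, had 1.33 and 1.33 CPM in janus-2, against 3.22 and 2.80 CPM in Col-0 (log2 fold change -1.17, adjusted p 2e-09 by edgeR). Of the 2 EDS1 partners, SAG101 thus rose and PAD4 was not called.

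The N-hydroxypipecolic acid branch, which makes a mobile immune signal in parallel with salicylic acid, had 2 of its 3 listed genes at or near 0. ALD1 had 0 and 0 counts in janus-2, against 2 and 4 counts in Col-0. FMO1 had 0 and 0 counts in janus-2, against 1 and 0 counts in Col-0. These 2 genes could not be tested, and the one tested gene of the branch, AT5G52810, fell by 1.02 on the log2 scale.

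Of 7 genes that modify or break down salicylic acid, 2 rose and 3 fell (median -0.58). The shares were 28.6% and 42.9%, beside 18.5% higher and 27.2% lower over all genes. UGT74F2, which makes the glucose ester, had 41.6 and 43.3 CPM in janus-2, against 12.3 and 10.1 CPM in Col-0 (log2 fold change 1.93, adjusted p 1.09e-232 by edgeR). UGT74F1, which makes the glucoside, had 3.89 and 3.05 CPM in janus-2, against 8.45 and 8.59 CPM in Col-0 (log2 fold change -1.29). The paralogous glucosyltransferases thus differed in direction. DLO1, a salicylic acid hydroxylase, had 1 and 5 counts in janus-2, against 34 and 44 counts in Col-0. DLO1 passed the filter on low counts only through Col-0. At its janus-2 level it thus had to be higher in Col-0 to be tested at all. MES9, a methyl salicylate esterase, had 2.56 and 3.0 CPM in janus-2, against 1.34 and 1.47 CPM in Col-0 (log2 fold change 0.98). In this list UGT76B1 was called lower at -0.76, a call lost without janus-2 replicate 2 (-0.53) or Col-0 replicate 1 (-0.55).

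Among 14 NPR relatives, TGA factors and NIMIN proteins, 4 rose, 3 fell and 7 were not called (median 0.30). That makes 28.6% higher and 21.4% lower, beside 18.5% and 27.2% over all genes. All 4 that rose were TGA factors, the DNA-binding partners of NPR1. TGA4 had 22.8 and 20.3 CPM in janus-2, against 6.55 and 6.23 CPM in Col-0 (log2 fold change 1.76, adjusted p 1.34e-107 by edgeR). TGA5 and TGA6 followed at 1.36 and 1.02. NIMIN1, which binds NPR1 and restrains PR1 expression, had 34 and 28 counts in janus-2, against 351 and 389 counts in Col-0. NIMIN1 fell by 3.57 on the log2 scale (adjusted p 5.53e-73 by edgeR), the strongest change in this list.

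Of 9 WRKY factors linked to the hormone, 7 were tested, of which 5 rose and 1 fell (median 1.63). Those shares, 71.4% and 14.3%, stand beside 18.5% higher and 27.2% lower over all genes. WRKY18 had 58.6 and 58.4 CPM in janus-2, against 13.8 and 14.0 CPM in Col-0, a log2 fold change of 2.08. WRKY33, a regulator of camalexin synthesis, had 36 and 37.5 CPM in janus-2, against 8.98 and 9.59 CPM in Col-0 (log2 fold change 1.98, adjusted p 6.61e-212 by edgeR). WRKY40, a partner of WRKY18, had 7.28 and 6.03 CPM in janus-2, against 1.77 and 2.20 CPM in Col-0 (log2 fold change 1.74). WRKY54, the closest relative of WRKY70, went the other way, with 34 and 34 counts in janus-2, against 287 and 352 counts in Col-0 (log2 fold change -3.22, adjusted p 1.5e-57 by edgeR). WRKY38 had 0 and 0 counts in janus-2, against 8 and 2 counts in Col-0. WRKY62 had 1 and 4 counts in janus-2, against 9 and 6 counts in Col-0. Both were too low to be tested.

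Of 11 relatives of PR1, PR2 and PR5, 9 were tested, of which 2 rose and 5 fell (median -0.93). As shares this is 22.2% and 55.6%, beside 18.5% higher and 27.2% lower over all genes. The 2 that rose, OSM34 and BG3, had few counts. Neither would have passed the filter on low counts on its Col-0 libraries alone. OSM34, an osmotin-like relative of PR5, had 58 and 68 counts in janus-2, against 31 and 8 counts in Col-0. Its log2 fold change of 1.68 ranged over 0.92 without Col-0 replicate 2 to 3.08 without Col-0 replicate 1, and the call was lost under DESeq2's test (adjusted p 0.107).

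**Figure D5:**
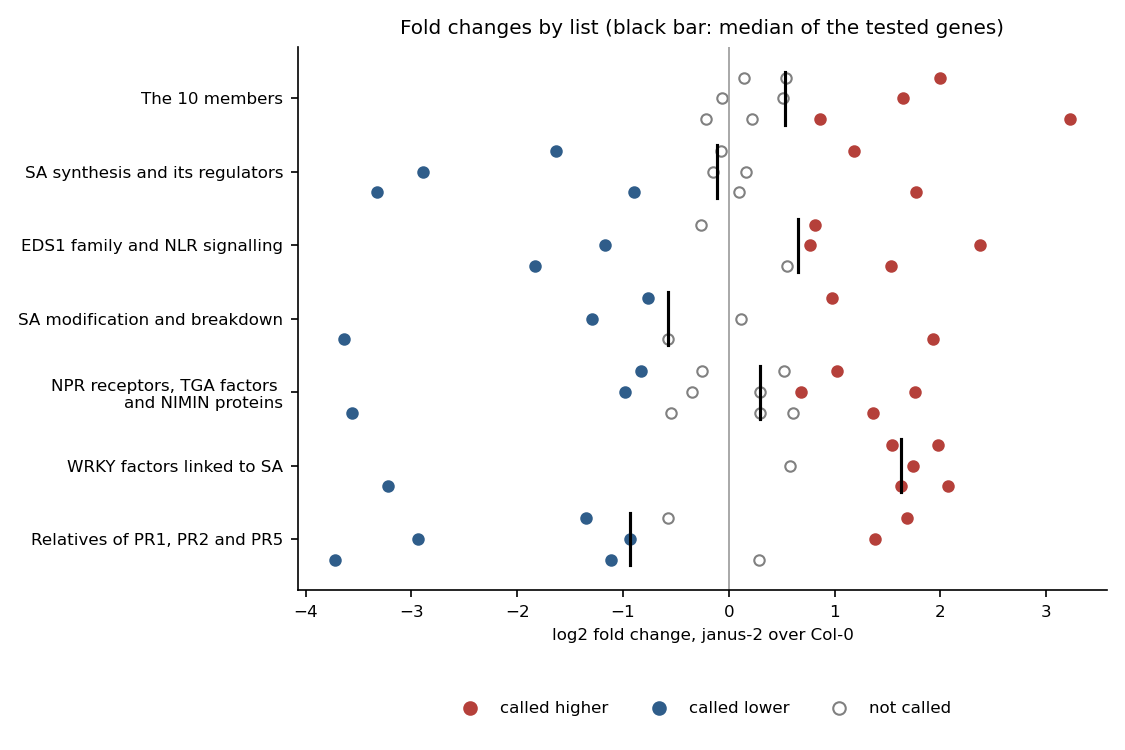
Log2 fold change of janus-2 over Col-0 for each tested gene of the 10 core genes and of 6 wider lists, 1 point per gene with the list median marked. The WRKY factors have the highest median (1.63) and the relatives of PR genes a low one (-0.93), and each list shown holds points on both sides of 0.

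The jasmonate and ethylene defence branch often acts against salicylic acid. Of its 10 listed markers 6 were tested, with 2 higher and 2 lower (median -0.37), or 33.3% in each direction, beside 18.5% higher and 27.2% lower over all genes. With 6 genes these shares are a description only. PR3, a basic chitinase, and PR4, a hevein-like protein, rose by log2 fold changes of 1.46 and 1.81. PR4 had 5.25 and 5.28 CPM in janus-2, against 1.59 and 1.42 CPM in Col-0. VSP1, a jasmonate-induced storage protein, had 777 and 807 CPM in janus-2, against 2377 and 2350 CPM in Col-0. ERF1 had 6 and 6 counts in janus-2, against 45 and 11 counts in Col-0, and passed the filter on low counts only through Col-0. Its call (log2 fold change -2.22) was lost without Col-0 replicate 1 (-0.75). The 3 PDF1.2 genes, the usual markers of the branch in leaves, had 0 counts in all 4 libraries, so they give no reading of it in this tissue.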

How the data were processed

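RNA was taken from inflorescences of janus-2 and Col-0 plants, with 2 mRNA libraries per genotype. The deposited mRNA files hold raw read counts per gene, which the authors made; the submitters' processing notes name Bowtie, HTSeq and TAIR10 without versions. Strand use and annotation version are not given in the sources used here. Groups were taken from the labels. Rows that name no gene (no feature 1.11% to 1.13%, ambiguous 2.15% to 2.34% of each library) were left out. The row for alignments that were not unique held 0 counts in each library. That does not show whether such reads were removed or placed before counting. Small RNA files were not used.

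Genes were filtered with filterByExpr, normalised by TMM (factors 0.994 to 1.01) and tested with edgeR 4.0.16 in R 4.3.3, as janus-2 over Col-0 with no other covariate and Benjamini-Hochberg adjustment over 22990 of 28775 genes. Genes with adjusted p up to 0.05 and at least 1.5-fold difference were called. Standard errors and intervals are those of DESeq2 1.42.0. CPM are counts scaled to each library's total on the tested genes times its TMM factor, not corrected for length. With 2 libraries per genotype, p-values measure the spread between these libraries, and both tools pool that spread across genes. A p-value therefore does not measure a gene's own spread alone. PR5, for example, had an adjusted p of 1.67e-20 by edgeR and 9.74e-10 by DESeq2. Counts do not separate spliced from unspliced transcripts. The steps were tried on simulated counts with a wider spread, in which few, well-counted genes changed, equally often up and down. That simulation does not cover low-count genes such as PR1, or changes as many and as unequal as those here.

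The 10 genes and all lists were chosen with earlier results of these data known. Named were the 10 genes, their close relatives, JANUS, and up to 4 called genes with the largest absolute log2 fold change per defence list, with list genes at or under 3 counts in all 4 libraries (FMO1, the PDF1.2 genes) given as counts. BG1, UGT76B1, ALD1, WRKY38 and WRKY62 were named after their values were seen. RefSeq (TAIR10.1) was used only for names (28009 of 28775 genes) and gene order. Promoter and protein sequences were not used here, so a planned motif search was not run. Alternatives were other normalisations, filters, fold thresholds, DESeq2, a replicate block and leaving out each library.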

Additional observations from a re-analysis of the deposited data

How the results depend on the processing

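SARD1, PR2 and PR5 were called higher under every normalisation, tool, filter, block and left-out library tried, and PR1 under each of these except the filter at a mean of 1 CPM, which removed it from the test. Of 109 log2 fold changes of the 10 genes under these settings, 108 kept their direction and their side of the threshold, and EDS5 crossed it without Col-0 replicate 2. With no fold threshold, 9324 genes were higher and 9778 lower, with 7 of the 10 genes higher and 1 lower. With a fold of at least 2, 2194 genes were higher and 4643 lower, with 3 of the 10 higher (SARD1, PR1 and PR2) and 0 lower. DESeq2's Wald test called 4103 genes higher and 6024 lower, and the same 4 of the 10. The replicate numbers are shared in the labels but deviations of same-numbered libraries correlated at only -0.015. With the replicate block, 4224 genes were higher and 6180 lower, and 4 of the 10 higher, so the block changed no call among them. Depth limits PR1 in Col-0 and genes with few counts, such as BG3, OSM34, ERF1 and DLO1. With 2 libraries of 1 mutant line, line and genotype effects cannot be told apart.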
